A study of Mus musculus with 1699 samples.

Results

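Cells sorted from the midbrain of Pitx3eGFP/wt embryos were compared between embryonic day 13.5 (E13.5) and embryonic day 15.5 (E15.5). Cells were members if they were labelled with 1 of these 2 stages, were Pitx3tm1Mli heterozygotes, had no ERCC spike-in RNA and held more than 100000 reads. The members were 281 of the 1699 cells in the series. Of the 282 cells with these labels, 1 cell at E13.5 with 3009 reads was left out, which left 140 cells at E13.5 and 1 cell more at E15.5. From the 1699 cells the study also excluded cells by further quality limits. It excluded others that clustered with cells lacking eGFP and high in Olig1. Those exclusions were not repeated here, so the 281 cells may include some that the study left out.

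The study followed Pitx3-expressing midbrain neurons from the embryo to the adult by sequencing single cells, and these 2 stages are the earliest it sampled. In the Pitx3eGFP knock-in line the green fluorescent protein is expressed from the Pitx3 locus, so that the heterozygote keeps 1 working allele and reports Pitx3 expression by fluorescence. GFP-positive cells were sorted from dissected ventral midbrain, which was taken apart with the same kit at both stages, and each cell was sequenced with Smart-seq2, a full-length method without molecular identifiers or strand information. The sort selects cells by fluorescence from the Pitx3 locus, whether or not they make tyrosine hydroxylase, and male and female mice were used. The labels name no animal, litter or plate for a cell, so each stage is 1 sample, no test between stages was possible, and stage cannot be told apart from sort day, plate or litter.

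Midbrain dopamine neurons leave the cell cycle in the ventral midbrain, switch on the transcription factors Nr4a2 and Pitx3, and then acquire in steps the enzymes and transporters of dopamine transmission while their axons grow toward the forebrain. Transcription factors of the Lmx1, Foxa, En and Otx families specify and maintain the lineage, Ebf factors act in newly born neurons, and factors of the nuclear factor I (NFI) family act in later steps of neuronal and glial differentiation. Within the lineage, Aldh1a1 is found in neurons of the ventral substantia nigra, Slc6a3 is high in nigral neurons and in part of the ventral tegmental area, and Otx2 and Calb1 are found in neurons of the ventral tegmental area.

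Each E13.5 cell held 888998 to 5876415 reads on gene entries (median 2357898), and each E15.5 cell 265568 to 4749011 (median 2083310). The median number of entries with a read was 6824.5 at E13.5 and 6447 at E15.5, and after each cell was thinned to 100000 reads it was 4640 and 4373. Reads on mitochondrial entries made up a median of 2.77% and 2.76%. No 2 cells held identical counts. Xist without a Y-linked gene was over 10 RPKM (reads per kilobase of gene model per 1000000 mapped reads) in 54 cells at E13.5 and 49 at E15.5, a Y-linked gene without Xist in 46 and 54, and both together in 0 of 281 cells, which allows a share of up to 1.07% (3 counts of the total, as for each count of 0 given here). At least 3 of 12 progenitor and radial glia markers were over 10 RPKM in 10 cells at E13.5 and 9 cells at E15.5, and these cells were kept. A single cell held up to 11 of them at E13.5 and up to 9 at E15.5. Their summed level reached 10248 RPKM at E13.5 (median 147.1) and 19863 RPKM at E15.5 (median 155.45). For 11 oligodendrocyte, 8 microglial and 9 endothelial or pericyte markers, the count of cells with at least 3 was 0 at both stages for each list. The summed level of the oligodendrocyte markers ran from 0 to 245.4 RPKM at E13.5 (median 2.08) and from 0 to 1764 RPKM at E15.5 (median 2.52). Olig1, Olig2 and Sox10 were at 0 in every E13.5 cell, and no marker of the list was at 0 in every E15.5 cell. At least 1 of the 11 was over 10 RPKM in 26 cells at E13.5 and 41 at E15.5. The summed level of the endothelial and pericyte markers had a median of 0 at both stages and reached 120 RPKM at E13.5 and 82 RPKM at E15.5. At least 1 of the 6 astrocyte markers was over 10 RPKM in 54 cells at E13.5 and 66 at E15.5. The most frequent was Slc1a2, in 52 and 65 cells. Their summed level reached 434 RPKM at E13.5 and 3607 RPKM at E15.5. Aqp4 was at 0 at both stages, and 1 cell at E15.5 held at least 3 of the 6 over 10 RPKM. At least 3 of 8 erythroid markers were over 10 RPKM in 1 cell at E13.5 and 0 at E15.5, and for 5 serotonin neuron and 7 motor or red nucleus neuron markers the count was 0 at both stages.

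Of 39468 gene entries, 9540 had an RPKM over 10 in at least 10% of the 281 cells and were compared. Mean RPKM was at least 2-fold higher at E15.5 for 2.57% of the entries compared and at least 2-fold lower for 371 entries (3.89%). The share of cells over 10 RPKM was at least 20 percentage points higher at E15.5 for 54 entries (0.566%) and at least 20 points lower for 2.39%. These are fixed sizes and not tests. Reads were counted without strand, and where genes overlap on opposite strands the reads of the shared stretch cannot be told apart. Overlap was taken over whole genes, introns included. Among the genes named below, this holds for Pitx3 (with Elovl3), Nfia (E130114P18Rik), Kcnip4 (5730480H06Rik), Ldb1 (Pprc1), March5 (Cpeb3), Sema5b (Gm5963), Junb (Prdx2) and the pair Gm2694 and Cbln1. Gm5963, a pseudogene that overlaps Sema5b, was over 10 RPKM in 96.4% and 95% of cells. Ratios are of mean RPKM plus a pseudocount of 1, which understates the change of low genes, and are given as log2 of E15.5 over E13.5. The median log2 ratio over all compared entries was -0.04, and the median difference in share was -1.7 points. When the mean of log2(RPKM + 1) replaced the mean RPKM, 1.75% of entries were higher and 4.99% lower.

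**Figure D1:**
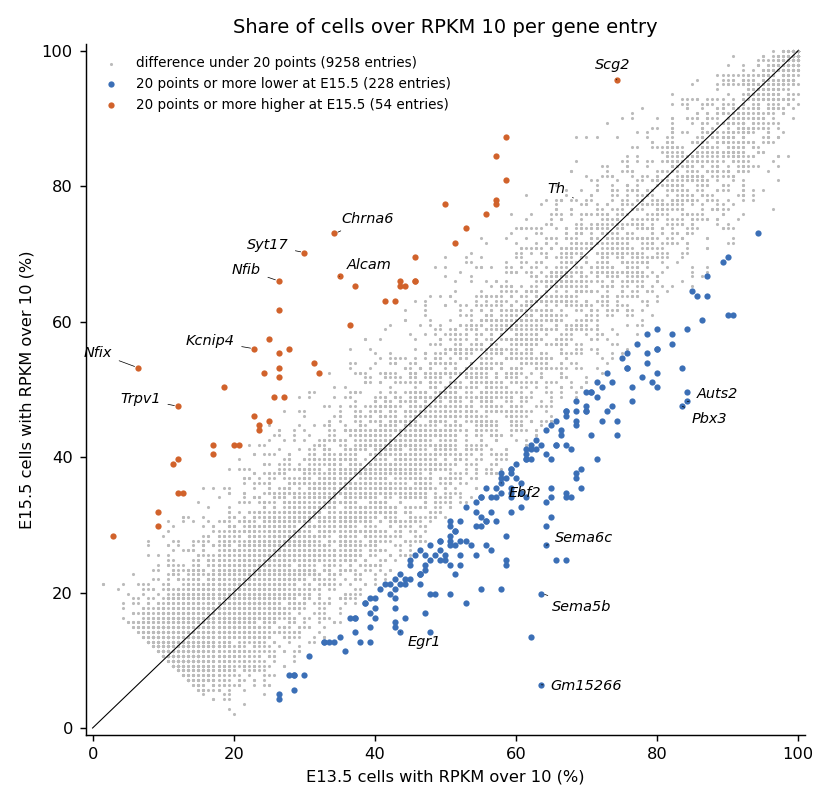
Each point is 1 of the 9540 gene entries compared, with the share of E13.5 cells over 10 RPKM in percent on the horizontal axis and the share of E15.5 cells on the vertical axis. The 54 orange entries lie at least 20 points above the line of equal shares, with Nfix farthest from it, and the blue entries (2.39%) at least 20 points below it, with Gm15266 farthest.

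The ratio moved with the base composition of the transcripts. With the entries ordered by GC content in 10 groups of equal size, the median log2 ratio was 0.17 in the lowest group (25.3% to 41.3%) and -0.37 in the highest (57.8% to 76.5%), with the groups between them in falling order. Entries called lower by level had a median GC content of 54.3%, entries called higher 46.1%, and all compared entries 49.6%. After the E15.5 means were divided by the median ratio of their group, 2.65% of entries were higher and 2.97% lower, and 82.4% of the entries first called higher and 69.3% of those first called lower were among them. How far base composition or library preparation entered single results was not tested, and the adjusted value is given beside a gene where it changed its call.

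**Figure D2:**
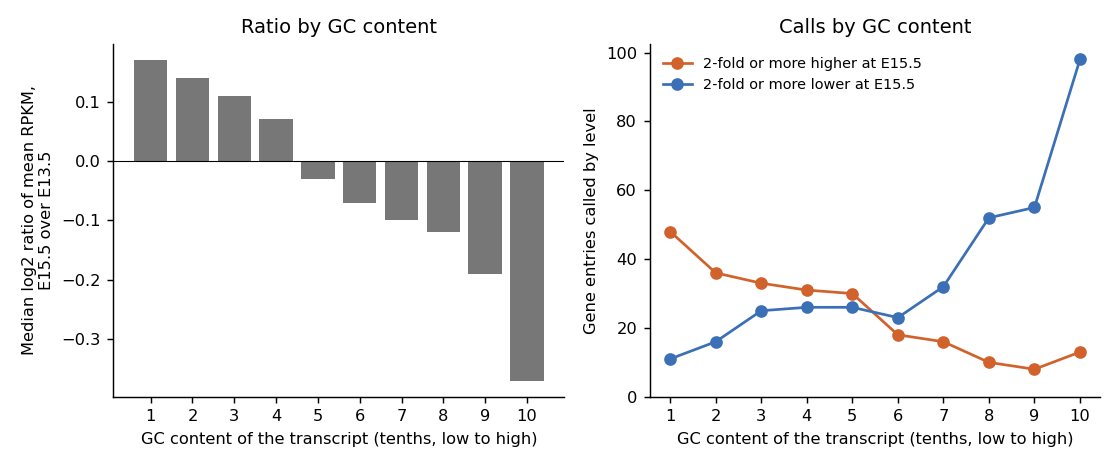
Left, the median log2 ratio of mean RPKM (E15.5 over E13.5) in 10 groups of entries ordered by transcript GC content, which falls from 0.17 to -0.37. Right, the number of entries in each group that were at least 2-fold higher (orange) or lower (blue) at E15.5; the lower entries number 11 in the first group and 98 in the last.

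The widest rise in the share of expressing cells was that of Nfix, a transcription factor of the NFI family (chromosome 8, 84699876 to 84800344, minus strand, GRCm38). Its RPKM in E13.5 cells ran from 0 to 127.4 with a median of 0, and 120 of 140 cells were at 0. At E15.5 it ran from 0 to 828 with a median of 14.7, and 33 cells were at 0. The ranges overlap, and more cells held a signal at E15.5. Nfix was over 10 RPKM in 9 cells at E13.5 (6.43%, exact 95% interval 2.98 to 11.9%) and in 75 cells at E15.5 (53.2%, 44.6 to 61.6%), a difference of 46.8 points (Newcombe 95% interval 37 to 55.3). These intervals cover the counting of cells only and not the spread between embryos. The mean of 3.13 RPKM became 72.1, a log2 ratio of 4.15.

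Nfib, of the same family, had a median of 0.163 RPKM at E13.5 (range 0 to 199.4) and of 37.4 at E15.5 (0 to 425). It was over 10 RPKM in 26.4% of E13.5 cells and 66% of E15.5 cells, 39.5 points more (28.2 to 49.4), with a log2 ratio of 1.93. Nfia was lower and narrower, with 15.7% and 31.2% of cells and a log2 ratio of 1.16. All 3 NFI genes passed 10 RPKM together in 3 cells at E13.5 (2.14%) and in 31 at E15.5 (22%), and none of the 3 did in 96 cells (68.6%) and 35 cells (24.8%). Among cells with Nfix over 10 RPKM, Nfib was also over 10 in 7 of 9 at E13.5 and in 64 of 75 at E15.5. The exact intervals of these shares, 40 to 97.2% and 75.3 to 92.4%, overlap.

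Nfix and Nfib were higher at E15.5 both in cells with and in cells without high Th. Taking an RPKM over 150 as high, Nfix was over 10 RPKM in 3 of 90 Th-high cells at E13.5 (3.33%) and 48 at E15.5 (47.1%), and in 6 of 50 other cells (12%) and 27 of 39 (69.2%). In Nxph4-high cells it was over 10 in 5 of 38 (13.2%) and 20 of 23 (87%), 73.8 points more (50 to 85.1). In Slc6a3-high cells it was over 10 in 0 of 25, which allows a share of up to 12%, and in 14 of 38 (36.8%). Nfib was over 10 in 21 of 38 Nxph4-high cells at E13.5 and in all 23 at E15.5, and in 1 of 25 and 10 of 38 Slc6a3-high cells.

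Transcription factors of the Ebf family went the other way. Ebf2 had a median of 50.2 RPKM at E13.5 (range 0 to 960) and 0.204 at E15.5 (0 to 491). It was over 10 RPKM in 57.9% and 36.2% of cells, a difference of -21.7 points (-32.5 to -10), with means of 119.4 and 43.5 RPKM and a log2 ratio of -1.44. Ebf1 was over 10 RPKM in 51.4% and 29.1% of cells, with a log2 ratio of -1.45. Ebf3, which passed neither size, was at 54.3% and 39.7%. All 3 Ebf genes were over 10 RPKM in 43 cells at E13.5 (30.7%) and 11 at E15.5 (7.80%), and none in 35 (25%) and 54 (38.3%). Ebf1 and Ebf2 were also lower at E15.5 in both Th classes, Ebf2 at 43.3% and 26.5% of Th-high cells and at 84% and 61.5% of the others.

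**Figure D3:**
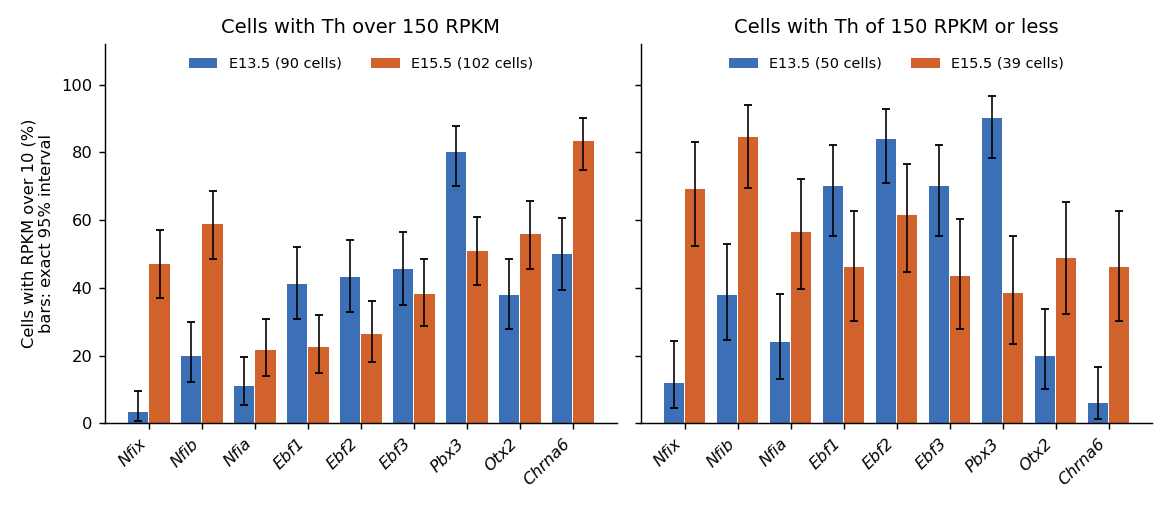
Share of cells over 10 RPKM, in percent with exact 95% intervals, for 9 genes at E13.5 (blue) and E15.5 (orange), in cells with Th over 150 RPKM on the left and in the other cells on the right. The 3 NFI genes, Otx2 and Chrna6 are higher and the 3 Ebf genes and Pbx3 lower at E15.5 in both panels, and the intervals of the stages lie apart in both panels for Nfix, Nfib, Chrna6 and Pbx3 but not for the other 5 genes. The intervals cover the counting of cells only and are not a test between stages.

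Of 21 lineage transcription factors listed, 17 were compared. By level 1 was higher and 4 lower at E15.5, by share 1 higher and 4 lower, and the median log2 ratio was -0.34. Over all compared entries 2.57% were higher and 3.89% lower by level, 0.566% and 2.39% by share, and the median was -0.04. Otx2, which controls regional identity of the midbrain, was the gene that was higher. Its median was 0 RPKM at E13.5 (range 0 to 472) and 81.3 at E15.5 (0 to 1106), and its share of cells was 31.4% and 53.9%, 22.5 points more (10.9 to 33.2). Pbx3, a homeodomain factor, had a median of 97.9 RPKM at E13.5 (range 0 to 725) and 5.06 at E15.5 (0 to 520). It was over 10 RPKM in 83.6% and 47.5% of cells, 36.1 points fewer (25.3 to 45.7), with a log2 ratio of -1.42. Bnc2 was over 10 RPKM in 30.7% and 14.9% of cells (log2 ratio -1.31). En2 was at 55.7% and 35.5% with medians of 12.9 and 7.46 RPKM, close to the threshold of 10, and at a threshold of 50 its share differed by 0.709 points in the other direction. After the GC adjustment its difference of -20.3 points became -11.7.

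The factors most widely present at both stages differed less. Nr4a2, an orphan nuclear receptor required for the dopaminergic phenotype, had medians of 714 and 628 RPKM and was over 10 RPKM in 98.6% and 97.2% of cells. Lmx1a was at 91.4% and 85.1%, En1 at 85.7% and 92.9%, Foxa2 at 85.7% and 80.1%, Lmx1b at 61.4% and 58.9%, and Foxa1 at 59.3% and 49.6%. For each of these 6 genes the interval of the difference, which covers the counting of cells only, included 0. Pitx3 itself had medians of 352.5 RPKM (0 to 1896) and 239 RPKM (0 to 1831), with 87.1% and 86.5% of cells over 10 RPKM. The reporter transcript eGFP had medians of 269 and 165.3 RPKM, was over 10 RPKM in 92.9% and 93.6% of cells, and had a log2 ratio of -0.69. Cells of both stages were selected by fluorescence from this locus, so the Pitx3 and eGFP shares do not describe unselected cells. The Pitx3 log2 ratio was -0.40 as measured and -0.03 after the adjustment for GC content. The eGFP entry has no transcript in the annotation used, so its ratio could not be adjusted.

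Foxp1, a forkhead factor whose identifier has more than 1 entry and whose first entry was used, was over 10 RPKM in 65.7% and 41.8% of cells, with a log2 ratio of -1.32. Pou2f2, a POU-domain factor, was at 28.6% and 16.3% (log2 ratio -1.64). Nfix, Nfib, Nfia, Ebf2, Ebf3 and Pou2f2 all belong to a list of 12 branch factors that the study named from these samples, so their counts are not independent evidence of a direction. Of the 10 that were compared, 3 were higher and 2 lower by level, beside 2.57% and 3.89% of all compared entries. The rule also named the following genes, singly and not as members of a list. Ldb1, the partner of LIM-homeodomain factors, was at 84.3% and 49.6% of cells, with a log2 ratio of -1.11 that became -0.75 after the GC adjustment. Tle3, a Groucho corepressor, had means of 134.2 and 44.7 RPKM (log2 ratio -1.56). Auts2, a nuclear regulator of neuronal development, had medians of 65.4 and 7.71 RPKM and was at 84.3% and 48.2% of cells. Ep400, a chromatin remodeler, had a log2 ratio of -1.80, and Uncx, a homeodomain factor, one of -1.65.

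**Figure D4:**
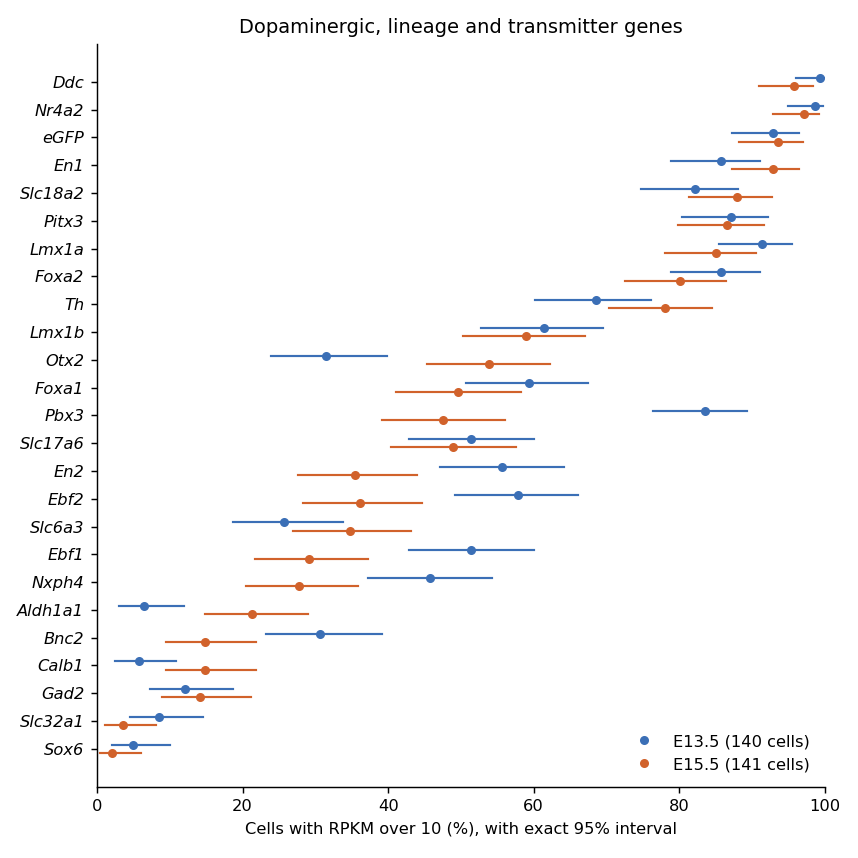
Share of cells over 10 RPKM in percent, with exact 95% intervals, for 25 genes of the dopamine pathway, lineage factors and transmitter or subtype markers at E13.5 (blue) and E15.5 (orange). The intervals of Otx2, Pbx3, En2, Ebf1, Ebf2, Aldh1a1, Bnc2 and Nxph4 do not overlap, and those of the other 17 genes do. They cover the counting of cells only and not the spread between embryos.

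Most genes of the dopamine pathway differed by less than 2-fold between the stages. The list of 15 genes of dopamine synthesis and transport also holds Drd2, a dopamine receptor, and Dlk1, which neither makes nor carries dopamine. Of its genes 12 were compared, 9 had a log2 ratio above 0, and the list's median was 0.48. None reached 2-fold higher as measured, and 2 were at least 2-fold lower, beside 2.57% and 3.89% of all compared entries. Th, the rate-limiting enzyme of dopamine synthesis, had a median of 724 RPKM at E13.5 (range 0 to 7471) and 1214 at E15.5 (0 to 6660). Its share over 10 RPKM was 68.6% and 78%, 9.44 points more (-0.910 to 19.5). Ddc, the decarboxylase that makes dopamine from L-DOPA, had medians of 1146 and 1083 RPKM. Slc18a2, the vesicular monoamine transporter, had medians of 147.9 RPKM (0.121 to 1062) and 297 RPKM (0 to 1766) and a log2 ratio of 0.94. It was high in 47.9% of E13.5 cells and 68.1% of E15.5 cells, 20.2 points more (8.70 to 31). Slc6a3, the plasma membrane dopamine transporter, was over 10 RPKM in 25.7% and 34.8% of cells, with means of 117.3 and 233.5 RPKM and a log2 ratio of 0.99 that became 1.09 after the GC adjustment.

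Gch1 and Dlk1 were the 2 genes of the list that were lower. Gch1, the enzyme that starts the synthesis of the Th cofactor tetrahydrobiopterin, had a median of 60.1 RPKM at E13.5 (range 0 to 1104) and 1.07 at E15.5 (0 to 639), with a log2 ratio of -1.44. Its share was 60.7% and 44.7%, 16 points fewer (4.36 to 27.1). Pts, Qdpr and Pcbd1, which act in the synthesis or recycling of the same cofactor, were not called. Their log2 ratios were 0.55, 0.43 and 0.78. Dlk1, a membrane protein of the Notch ligand family, had means of 331.8 and 127.4 RPKM (log2 ratio -1.37), while its share of 82.1% and 73% differed by less than 20 points.

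The share of Th-high cells was 64.3% (55.8 to 72.2%) at E13.5 and 72.3% (64.2 to 79.5%) at E15.5, and 12 cells at each stage lay between 75 and 300 RPKM. Slc6a3-high cells were 17.9% and 27%, 9.09 points more (-0.684 to 18.7), and 24 of 25 and 36 of 38 of them were also Th-high. Cells with high Th and without high Slc6a3 were 47.1% and 46.8%. Nxph4-high cells (Nxph4 is a neurexophilin, a secreted ligand of neurexins) were 27.1% and 16.3%, 10.8 points fewer (1.17 to 20.3). Among Th-high cells, Nxph4-high cells were 18.9% and 5.88% (difference -13.0, -22.8 to -3.73), and among the other cells 42% and 43.6% (1.59, -18.2 to 21.5). Gad2-high cells, with the GABA-synthesizing enzyme, were 8.57% and 7.80% (-0.770, -7.50 to 5.91). None of Th, Slc6a3, Nxph4 and Gad2 was high in 13.6% and 9.93% of cells. These classes are ranges of 1 gene and not cell types.

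The largest ratio of means among the genes named was that of Aldh1a1, an aldehyde dehydrogenase that makes retinoic acid. Its median was 0 RPKM at E13.5 (range 0 to 355.1) and 0.367 at E15.5 (0 to 7962), and the means were 7.80 and 300.9 RPKM (log2 ratio 5.10). The mean rests on few cells. It was high in 1 cell at E13.5 (0.714%) and in 24 at E15.5 (17%), 16.3 points more (10.1 to 23.4). Its share over 10 RPKM was 6.43% and 21.3%, 14.8 points more (6.86 to 22.9). Among Slc6a3-high cells Aldh1a1 was over 10 RPKM in 6 of 25 (24.0%) and 19 of 38 (50%), 26 points more (1.36 to 45.6), and among the other cells in 2.61% and 10.7%. Among cells without high Th it was over 10 in 1 of 50 and 1 of 39.

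Of 20 subtype genes, 12 were compared, 4 were higher and 1 lower by level (2.57% and 3.89% of all compared entries), and the median log2 ratio was 0.16. Calb1, the calcium-binding protein calbindin, was over 10 RPKM in 5.71% and 14.9% of cells (9.18 points more, 2.04 to 16.5). Cck, the neuropeptide cholecystokinin, had a median of 76.4 RPKM at E13.5 (range 0 to 4898) and 428 at E15.5 (0 to 4490), and its share was 52.9% and 73.8%. Cbln4, a secreted synapse organizer, was at 32.1% and 52.5% of cells, with a log2 ratio of 1.16. Cbln1, its relative, was at 45.7% and 25.5%, and its log2 ratio was -1.17 as measured and -0.99 after the GC adjustment. The noncoding gene Gm2694, which had medians of 172.9 and 1.84 RPKM and a log2 ratio of -2.39, overlaps Cbln1 on the opposite strand. Reads of the stretch that the pair shares cannot be told apart without strand information. Sox6 was over 10 RPKM in 5.0% and 2.13% of cells. Vip was over 10 RPKM in 1 cell at E13.5 and in no cell at E15.5, which allows a share of up to 2.13%. Slc17a6, the vesicular glutamate transporter, was at 51.4% and 48.9%, and Slc32a1, the vesicular GABA transporter, at 8.57% and 3.55%.

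Some genes of peptide release were higher at E15.5. Of 28 genes of neuropeptides and dense-core vesicles, 12 were compared, 4 were higher by share and 2 by level, beside 0.566% and 2.57% of all compared entries, and none was called lower. Of the members not called, Pam, the enzyme that amidates peptides, was at 61.4% and 48.2% of cells, and Chgb, a granin, at 92.1% and 82.3%. Scg2 encodes secretogranin II, a granin stored in dense-core vesicles and cleaved into secretoneurin. Its RPKM ran from 0 to 1123 at E13.5 with a median of 130.6, and from 0.688 to 6043 at E15.5 with a median of 1106, so that the E15.5 median lay just under the highest E13.5 cell. The log2 ratio of 2.59 was the largest among entries over 10 RPKM in at least 50% of all cells. Scg2 was over 10 RPKM in 74.3% of E13.5 and 95.7% of E15.5 cells, in 80% and 99% of Th-high cells, and in 64% and 87.2% of the others. Adcyap1, the peptide PACAP, was at 9.29% and 29.8% of cells, 20.5 points more (11.4 to 29.4), with means of 6.91 and 42.1 RPKM. Resp18, a protein of the secretory pathway, was at 45.7% and 66%, with a log2 ratio of 0.99 that became 1.06 after the GC adjustment.

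**Figure D5:**
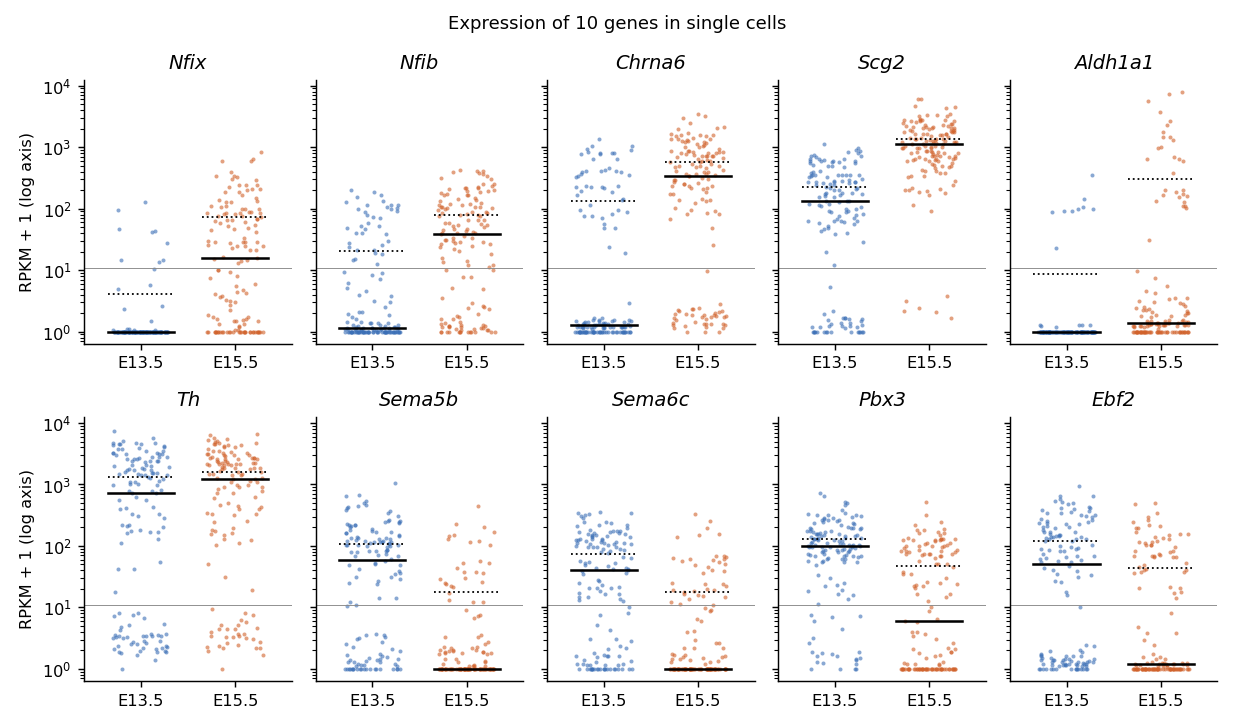
RPKM plus 1 on a log axis in every cell at E13.5 (blue) and E15.5 (orange) for 10 genes, with the median as a solid line, the mean as a dotted line and the 10 RPKM threshold as a thin grey line. Nfix, Nfib, Chrna6 and Scg2 have higher medians at E15.5, Aldh1a1 has 24 cells over 150 RPKM beside 1 at E13.5, and the medians of Sema5b, Sema6c, Pbx3 and Ebf2 fall below the threshold.

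Scg2 and Th are known targets of factors that bind the cyclic AMP response element, so promoters were searched for its palindrome TGACGTCA, which reads the same on both strands. The window was the 250 bases before each transcription start (RefSeq, GRCm38.p6). Of the genes named by the rule, 74 had an entry in the promoter table, and the element was found in 4 of the promoters searched. They are shown because they hold the same 8 bases and did not move alike: Scg2 and Ldha were at least 2-fold higher at E15.5, Uncx was at least 2-fold lower, and Th differed by less. The element, in capitals, begins 68 bases before the start in Scg2, 12 in Ldha, 85 in Uncx and 45 in Th. The windows are chr1:79440027-79440276 (minus strand) for Scg2, chr7:46845554-46845803 (plus strand) for Ldha, chr5:139543648-139543897 (plus strand) for Uncx and chr7:142899996-142900245 (minus strand) for Th, each written 5′ to 3′ along its gene.
Scg2: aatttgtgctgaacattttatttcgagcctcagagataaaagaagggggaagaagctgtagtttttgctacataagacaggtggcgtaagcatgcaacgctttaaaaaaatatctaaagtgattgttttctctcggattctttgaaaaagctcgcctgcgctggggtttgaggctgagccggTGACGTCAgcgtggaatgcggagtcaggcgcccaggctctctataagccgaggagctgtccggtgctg
Ldha: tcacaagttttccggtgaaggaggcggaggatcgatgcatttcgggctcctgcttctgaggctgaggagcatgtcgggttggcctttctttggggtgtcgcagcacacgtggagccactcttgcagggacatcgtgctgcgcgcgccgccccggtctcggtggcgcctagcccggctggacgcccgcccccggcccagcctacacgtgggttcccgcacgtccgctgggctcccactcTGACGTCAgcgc
Uncx: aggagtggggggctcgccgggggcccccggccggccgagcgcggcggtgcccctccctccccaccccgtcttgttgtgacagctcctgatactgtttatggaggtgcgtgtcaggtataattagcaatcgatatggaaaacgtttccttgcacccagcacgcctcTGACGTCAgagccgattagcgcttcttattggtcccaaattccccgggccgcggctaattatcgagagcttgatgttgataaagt
Th: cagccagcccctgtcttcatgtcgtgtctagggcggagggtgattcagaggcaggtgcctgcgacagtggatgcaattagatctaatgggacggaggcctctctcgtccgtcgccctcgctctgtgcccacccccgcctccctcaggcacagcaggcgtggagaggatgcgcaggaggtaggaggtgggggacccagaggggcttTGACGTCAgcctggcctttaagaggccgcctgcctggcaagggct
The element was present in 1.62% of all 27025 promoters, in 3.20% of those of compared entries, in 2.72% of those of entries higher by level and in 1.94% of those of entries lower by level. The letters TAATCC, bound by Pitx and Otx homeodomains, were present on either strand in 6.38% of all promoters, in 4.60% of those of compared entries, in 5.98% for the higher entries (11 promoters) and in 1.55% for the lower entries (4 promoters). The letters TTGGCA of the NFI site were present on either strand in 12.5%, 9.24%, 10.3% and 9.69% of the same groups. The palindromic EBF motif was present on either strand in 0.788%, 0.774%, 0.543% and 0.775%. Entries called by share gave other values. For the 36 promoters of entries higher by share, the shares were 5.56% for TGACGTCA, 8.33% for TAATCC and 0% for TTGGCA and the EBF motif, where a count of 0 allows up to 8.33%. For entries lower by share they were 2.74%, 2.05%, 7.53% and 1.37%. These are counts of letters in a window and not of bound sites. They were not adjusted for base composition. The transcripts of entries lower by level had a median GC content of 54.3%, and those of entries higher by level 46.1%. How far base composition entered the shares was not tested.

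Ldha, the lactate dehydrogenase subunit of the second promoter, had a median of 0.791 RPKM at E13.5 (range 0 to 929) and 90.4 at E15.5 (0 to 1149), and its share of cells was 41.4% and 63.1%. Uncx had medians of 44.2 RPKM (0 to 270) and 0.330 RPKM (0 to 133.5), with 69.3% and 38.3% of cells.

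Of 9 nicotinic receptor subunits 5 were compared, and 1 was higher and 1 lower by either size, beside 2.57% and 3.89% of all compared entries by level and 0.566% and 2.39% by share. The other subunits, Chrnb2 (90% and 82.3% of cells), Chrnb3 (10% and 21.3%) and Chrna3 (10% and 14.9%), were not called. Chrna6, the α6 subunit that dopamine neurons use at their terminals, had a median of 0.299 RPKM at E13.5 (range 0 to 1331) and 340.9 at E15.5 (0 to 3425). It was over 10 RPKM in 34.3% and 73% of cells, 38.8 points more (27.4 to 48.7), with a log2 ratio of 2.07. The difference was present in Slc6a3-high cells (72% and 89.5%, 17.5 points more, -1.84 to 38.1) and in the other cells (26.1% and 67%, 40.9 points more, 28 to 51.9), although the first interval includes 0. Among cells without high Th it was over 10 in 3 of 50 and 18 of 39. Chrna4, the α4 subunit, was lower, at 59.3% and 38.3% of cells with a log2 ratio of -1.18, or -0.99 after the GC adjustment. Of 36 glutamate, GABA and glycine receptor subunits, 18 were compared, 12 had a ratio above 0, as had 4448 of the 9540 compared entries, and 2 were at least 2-fold higher by level, as were 2.57% of them. They were Gabra2 (6.43% and 14.2% of cells) and Glrb (17.9% and 25.5%), with log2 ratios of 1.13 and 1.08 that became 0.97 and 0.92 after the adjustment.

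More ion channel genes were called higher than lower at E15.5. Of 31 potassium channel genes 14 were compared, and 4 were higher by level and none lower, beside 2.57% and 3.89% of all compared entries. Kcnip4, a subunit that modulates A-type potassium channels, had a median of 0 RPKM at E13.5 (range 0 to 329) and 45.5 at E15.5 (0 to 784) and was at 22.9% and 56% of cells. Kcnip1, of the same family, was at 20.7% and 41.8%. Kcnn3, the SK3 channel of the afterhyperpolarization in dopamine neurons, was at 20% and 41.8%, 21.8 points more (11.1 to 31.9). Kcnk10, a 2-pore channel, was at 23.6% and 29.8%, and its log2 ratio of 1.0 became 0.94 after the adjustment. Kcnk9, of the same channel class, was not called and was at 60% and 44.7%. Of 32 sodium, calcium and HCN channel genes 21 were compared, and 3 were higher and 1 lower by level. Cacna2d3, an auxiliary calcium channel subunit, was not called and was at 73.6% and 58.9% of cells. Scn9a, a sodium channel, was at 18.6% and 50.4% of cells, 31.8 points more (20.9 to 41.6). Cacna1e, the R-type calcium channel, was at 17.1% and 35.5%, and Nalcn, the sodium leak channel, at 12.1% and 27%. Cacna1h, a T-type calcium channel, was lower, at 36.4% and 19.1%, with a log2 ratio of -1.29 that became -0.96 after the adjustment. Trpv1, the capsaicin-gated channel, had a median of 0 RPKM at E13.5 (range 0 to 326.9) and 4.97 at E15.5 (0 to 365.03) and was at 12.1% and 47.5% of cells, 35.4 points more (25.1 to 44.7).

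Of 38 synaptic vesicle and exocytosis genes 32 were compared, the median log2 ratio was 0.12, and 1 was called, Cplx2, a complexin, with a log2 ratio of -1.45 at low means of 5.54 and 1.4 RPKM. Over all compared entries 3.89% were lower by level. Syt17, a synaptotagmin, was among the 10 widest rises. Its median was 0 RPKM at E13.5 (range 0 to 391) and 87.6 at E15.5 (0 to 708), and it was at 30% and 70.2% of cells, 40.2 points more (28.9 to 50). Mt3, a metallothionein of neurons, was at 26.4% and 61.7%. Ptn, the secreted growth factor pleiotrophin, was at 25% and 57.4%. Tspan7, a tetraspanin, and Vat1l had log2 ratios of 1.2 and 1.17. The ratio of Tspan7 was 1.51 in Th-high cells (47.8% and 70.6% of cells) and 0.12 in the other cells (38% and 38.5%). The other entries among the 10 largest ratios in widely detected genes were AW551984 (1.25), Mcc (1.2) and Minar2 (1.13), of which Minar2 came to 0.96 after the adjustment.

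Axon guidance and adhesion genes were called in both directions. Of 54 guidance receptors and ligands 36 were compared. By share 4 were higher and 2 lower (0.566% and 2.39% of all compared entries). By level 3 were higher and 2 lower (2.57% and 3.89%), and the median log2 ratio was -0.09. Sema5b, a transmembrane semaphorin outside that list, showed the widest fall in share of any protein-coding gene. Its median was 58.6 RPKM at E13.5 (range 0 to 1051) and 0 at E15.5 (0 to 452), and 20 and 76 cells were at 0. It was over 10 RPKM in 63.6% and 19.9% of cells, 43.7 points fewer (32.7 to 53.2), with a log2 ratio of -2.60. In Th-high cells it was at 57.8% and 13.7%, and in the others at 74% and 35.9%. Sema6c had medians of 39.3 RPKM (0 to 358.3) and 0 (0 to 329) and was at 64.3% and 27% of cells, 37.3 points fewer (26 to 47.3). Sema6a was at 38.6% and 21.3%. Dcc, the netrin receptor, was at 62.1% and 41.1%, while Ntn1, the ligand netrin 1, was at 57.1% and 78%.

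Nrp1, a coreceptor for class 3 semaphorins, was at 17.1% and 40.4% of cells. The rise lay in Th-high cells, where its share was 32.4 points higher, and in the other cells the difference was -0.0513 points. Its relative Nrp2, which was not called, was at 59.3% and 46.1%. By level the log2 ratio of Nrp1 was 2.31 in Th-high cells and 0.03 in the others. Other genes named above were also called over all cells but stood below 2-fold in the cells without high Th. The log2 ratios in Th-high and other cells were 1.2 and 0.16 for Cacna1e, 1.75 and 0.33 for Kcnip1 and 1.12 and 0.35 for Cbln4. Whether the ratios of the Th classes differ was not tested. Alcam, an immunoglobulin adhesion molecule of growing axons, had a median of 0.986 RPKM at E13.5 (range 0 to 298) and 58.1 at E15.5 (0 to 606). It was at 35% and 66.7% of cells, 31.7 points more (20.1 to 42). Cntn1, a contactin, was at 17.1% and 41.8%. Among 12 cadherins and protocadherins compared, 1 was higher and 2 lower by level, beside 2.57% and 3.89% of all compared entries. Cdh6 was higher (24.3% and 39%, log2 ratio 1.35) and Fat3 was lower (39.3% and 17%, log2 ratio -1.18). Pcdh8 was lower at 67.1% and 46.1%, with a log2 ratio of -1.0 that became -0.65 and a share difference that became -18.9 points after the adjustment. Of 8 GDNF and neurotrophin receptors and ligands compared, 7 had a ratio above 0 and none was called by either size.

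The lists of immature neuron, Notch, cell cycle and Wnt genes held 1 or 2 called genes each. Over all compared entries 3.89% were lower by level and 2.39% by share, and counts this small do not set a list apart. Of 28 immature neuron genes 27 were compared, the median log2 ratio was 0.01, and 2 were called, both lower by level, as were 3.89% of all compared entries. Sox4, a factor of early neuronal differentiation, had medians of 53.9 and 16.9 RPKM and a log2 ratio of -1.30. Igfbpl1 was at 26.4% and 17% of cells with a log2 ratio of -2.22. Hey1, a Notch effector, was the only gene called of 10 compared in the proneural and Notch list, at 20% and 8.51% of cells. Cdkn1c, the cyclin-dependent kinase inhibitor p57, was the only gene called of 8 compared in the cell cycle list. It had medians of 106.8 RPKM (0 to 1413) and 31.8 RPKM (0 to 424) and was at 87.1% and 66.7%, 20.5 points fewer (10.7 to 29.8), or -19.8 points after the GC adjustment. Fzd10, a Wnt receptor, was the only gene called of the 6 Wnt genes compared, at 23.6% and 9.22%. Fabp7, a fatty acid-binding protein of radial glia, was over 10 RPKM in 16.4% and 16.3% of cells. Its log2 ratio was 1.06, or 0.92 after the GC adjustment. Its mean of 57.1 RPKM at E13.5 and 120 at E15.5 rests on few cells, since its highest cell was at 5624 and 15271 RPKM and without the 5% highest cells of each stage the log2 ratio was -0.46.

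By share more entries were called lower than higher, and part of the lower ones are hard to count. Of the entries lower by share, 28 (12.3%) were annotated as pseudogenes, against 6.44% of compared entries. Gm15266, the widest fall, went from 63.6% to 6.38% of cells, but its medians of 11.5 and 4.0 RPKM stood on either side of the threshold. After thinning to 100000 reads its difference was -12.9 points. Gm7389 (62.1% and 13.5%) had medians of 12.3 and 1.6 RPKM, and its difference was -37.3 points after thinning. Rpl18-ps1 (57.9% and 20.6%) had medians of 11.1 and 4.68 RPKM and a difference of -26.5 points after thinning. Reads of near-identical copies make such entries uncertain. Eno1b and Gm10036, both on chromosome 18, were also among the 10 widest falls, at 67.1% and 24.8% and at 65.7% and 24.8%. After thinning, the difference of Eno1b was -18.7 points.

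By level, the largest fall in widely detected entries was Mir6236, a microRNA entry, with medians of 1334 RPKM (94.7 to 8460) and 184.8 RPKM (0 to 7645) and a log2 ratio of -2.51. Gm26917, a noncoding gene, had medians of 797 and 212.6 RPKM. Its median share of a cell's reads was 0.0591% at E13.5 and 0.0149% at E15.5. Malat1, a nuclear noncoding RNA, took 0.482% and 0.284%. Whether these entries follow a difference in RNA capture between the stages was not tested. Ptms, the acidic nuclear protein parathymosin, was detected in nearly all cells, with medians of 434 RPKM (67 to 1615) and 104.8 RPKM (1.03 to 426). Its E13.5 median lay above the highest E15.5 cell, and the ranges overlap below it. March5, a mitochondrial ubiquitin ligase, had medians of 69.9 and 0 RPKM, and B630019K06Rik had means of 110 and 39.4 RPKM.

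Principal components of log2(RPKM + 1) for the 1000 most variable compared entries spread the stages without separating them. The first component held 2.54% of the variance. Its score ran from -43.3 to 30.3 at E13.5 (median -6.4) and from -31.2 to 33.3 at E15.5 (median 9.1), and was above 0 in 40% and 72.3% of cells. AW551984, Chrna6, Cck, Slc6a3, Resp18, Th, Kcnip4 and Scg2 were among its 15 highest loadings and Nxph4, Gm2694 and Ebf2 among the 15 at the other end. Slc10a4 and Dlk1, which were lower at E15.5 (log2 ratios -0.64 and -1.37), were also among the 15 highest. Within each stage the correlation of the first component with log2 Th was 0.327 at E13.5 and 0.526 at E15.5. The second component held 2.23% and was above 0 in 46.4% and 54.6% of cells. The third held 1.42% and was above 0 in 32.1% and 72.3%, with Cck, Th, Otx2, Cbln4 and Syt17 at one end and Sema5b, Gm2694 and Ebf2 at the other. Over the 281 cells the Pearson correlation with the number of detected entries was -0.494 for the first component, 0.653 for the second and -0.128 for the third. These are descriptions over cells that share a stage, and the part of detection in the scores was not tested.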

How the data were processed

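Single GFP-positive cells of heterozygous embryos were sequenced with Smart-seq2 by the authors, who aligned reads to mm10 with STAR, kept unique alignments and counted them per Ensembl gene with rpkmforgenes. The authors deposited for each entry a whole-number read count, not normalized, and an RPKM, which scales reads by the length of the gene model and by each cell's depth. Of the 39468 entries, 38130 could be paired with a symbol, and the others held 0.233% of reads. No unit was converted.

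Members and gene lists were chosen with earlier results of these data known. Cells over 100000 reads were kept. Depth ran from 265568 to 5876415 reads per cell. Entries over 10 RPKM in at least 10% of cells were compared by mean RPKM (pseudocount 1, call at 2-fold) and by share of cells over 10 RPKM (call at 20 points). As each stage is 1 sample, there is no test. Shares carry exact Clopper-Pearson 95% intervals and differences Newcombe intervals, made with scipy 1.17.1, which cover counting error only, and a count of 0 is given the limit of 3 counts of the total. Calculations ran in Python 3.11.15 with numpy 2.4.6 and scikit-learn 1.9.0 and were tested on simulated data. Scaling factors of the summed counts came from edgeR 4.0.16 (TMM) and DESeq2 1.42.0 (median of ratios). GC content is that of the longest GENCODE vM21 transcript, and coordinates are of the same annotation (GRCm38).

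Genes were named by a rule: the 10 largest differences in share in each direction, the 10 largest ratios in each direction among entries detected in at least 50% of cells, called members of 33 gene lists (up to 6 by each measure per list), and lineage, transmitter and sex-linked genes whatever their values. Ebf3, Malat1, Kdr and Slc1a2 were added after their values were seen, as were genes at the ends of principal components. These list members were not called and also fall outside the rule: Pam, Chgb, Chrnb2, Chrnb3, Chrna3, Kcnk9, Cacna2d3, Nrp2, Pts, Qdpr and Pcbd1. The alternatives tried were other thresholds, filters, pseudocounts, means and scalings, thinning, and subsets of cells. The GC adjustment and the match on detected entries were added after the data had been seen. The 1 cell under the read limit was left out, and the study's other exclusions of cells were not repeated. No doublet caller was run.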

Additional observations from a re-analysis of the deposited data

How the results depend on the processing

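No paired analysis was possible because the labels give no number that cells of the 2 stages share, and leaving out a replicate was not possible because each stage is 1 sample. As reported, 2.57% of entries were higher and 3.89% lower by level, and 0.566% higher and 2.39% lower by share. Without a filter on low values the shares by level were 4.45% and 4.32%, with the filter at 25% of cells 1.18% and 2.95%, with a pseudocount of 10 0.618% and 0.797%, and without the 5% highest cells of each entry and stage 4.16% and 8.90%. In cells with Th of 150 RPKM or less the shares were 6.77% and 8.55% by level and 2.36% and 5.28% by share. Calls at 1.5-fold or 15 points gave 9.83%, 13.4%, 1.65% and 5.86%, and calls at 3-fold or 30 points gave 0.587%, 0.650%, 0.105% and 0.346%. In cells with 6000 to 7500 detected entries, an alternative added after seeing the data, 0.901% were higher by share. For filters, thresholds and fewer cells the values follow in part from how many entries or cells enter, and for the other settings the cause was not tested. The number called stayed within 1.5 times under the other alternatives, but which entries were called changed. At a threshold of 50 RPKM, 51.9% of the entries first called higher by share and 29.8% of those called lower were called again, and with the mean of log2 values 33.9% and 52.3% of those called by level. TMM and median-of-ratios scaling multiplied the E15.5 means by 1.04, and the shares by level became 3.18% higher and 3.32% lower with TMM and 3.14% and 3.42% with median of ratios. The limit on detected entries was 15% of the 24698 entries with a read in any kept cell, and not of all 39468 entries. It removed no cell, and neither did the limit on Xist with a Y-linked gene. The limit of 3 oligodendrocyte, microglial, endothelial or pericyte markers, counted over these lists together, removed 1 cell at E13.5. Progenitor and radial glia markers did not enter it.

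Among named genes the direction of a called value changed in 5 cases. En2 differed by 0.709 points at a threshold of 50 RPKM. Fabp7 had log2 ratios of -0.072 with the mean of log2 values, -0.461 without the 5% highest cells and -0.439 in Th-high cells. Nrp1 differed by -0.051 points in cells with Th of 150 RPKM or less. Of the other recomputed values, 1551 log2 ratios and 1074 share differences moved by less than 1.5-fold or stayed within the counting interval, and 110 and 68 did not.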

Other observations

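Of 11 immediate early and stress genes compared, 3 were at least 2-fold lower at E15.5 (3.89% of all compared entries were) and none higher (2.57%), with a median log2 ratio of -0.47 (-0.14 after the GC adjustment). Egr1 was over 10 RPKM in 43.6% of E13.5 and 14.2% of E15.5 cells, Jund in 42.9% and 14.9% (log2 ratio -1.23, or -0.93 after the adjustment) and Junb in 20% and 6.38%. Junb overlaps Prdx2 on the opposite strand. Of 73 nuclear genes of oxidative phosphorylation, none was called by either size, and their median log2 ratio was -0.19 (-0.07 after the adjustment). Of all compared entries, 2.57% were higher and 3.89% lower by level, and 0.566% and 2.39% by share. Of 23 imprinted genes compared, Cdkn1c and Dlk1 were at least 2-fold lower (3.89% of all compared entries were) and none was higher (2.57%), with a median log2 ratio of 0.03.

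Many cells at or under 10 RPKM of an abundant gene held a few reads of it. The 44 cells at E13.5 and 31 cells at E15.5 with Th at or under 10 RPKM had a mean Th of 2.40 and 2.88 RPKM, which is 0.181% and 0.182% of the mean over all cells of the stage. For Aldh1a1, 6 such cells at E13.5 and 64 at E15.5 held a read, and the mean over all cells at or under 10 RPKM, with and without a read, was 0.149% and 0.212% of the stage mean. Chrna6 gave 0.132% and 0.156%, Slc6a3 0.170% and 0.234%, Scg2 0.167% and 0.114%, and Cck 0.265% and 0.4%. Over 500 and 556 entries with a mean over 100 RPKM and at least 20 such cells, the median cell was at 0.0925% and 0.145% of the mean. The source of these reads was not tested.

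Kdr, the only endothelial marker detected in more than a few cells, was over 10 RPKM in 22 cells at E13.5 and 5 at E15.5, and no cell held 3 of the 9 endothelial and pericyte markers.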
